A study of Mus musculus with 6 samples.

Results

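The genes described here are 9 genes of the red cell lineage, measured by ATAC-seq in blood from which the red cells had been lysed. They are the transcription factors Gata1, Klf1 and Tal1, the receptor Epor, the heme enzyme Alas2, the membrane transporter Slc4a1 and the adult globin genes Hba-a1, Hbb-bs and Hbb-bt. They were chosen as defining genes of erythroid cells among 78252 genes annotated on the main chromosomes, and a peak was assigned to one of them when its summit lay in the gene body or within 3 kb of an annotated start. This gave 11 of the 62876 consensus regions, which are the merged peaks of all libraries. The question was whether erythroid precursors, or open globin loci, could be seen in control or in HADA blood.

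ATAC-seq marks open chromatin by letting the Tn5 transposase insert adapters into accessible DNA. Per the labels, 3 libraries were controls and 3 were from animals in HADA, that is, high-altitude de-acclimatization, which follows the return to normal oxygen. Per the study's methods, the mice were young adult male C57BL/6j animals, the HADA mice had spent weeks in a hypobaric chamber before they were moved to normoxia, and the controls had stayed in normoxia throughout. The time after the return is not given for these libraries, nothing says whether each library came from a separate animal, and the spread between libraries may therefore be technical.

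Red cells arise from bone marrow progenitors in which GATA1, TAL1 and KLF1 act together on shared enhancers and promoters, and erythropoietin acting through its receptor keeps the precursors alive. Heme is made by a pathway that starts with ALAS2 in erythroid cells, and the globin genes are driven by distant enhancers, the locus control region upstream of the β-globin genes and elements in introns of Nprl3 upstream of the α-globin genes. Mature mouse red cells have no nucleus and give no ATAC-seq signal, while reticulocytes are likewise without a nucleus and nucleated erythroblasts mostly stay in marrow and spleen.

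The lists held 34045 to 41475 peaks in the controls and 44401 to 45799 in HADA. The background pileup, the number of reads stacked at an average position, stands for relative depth and was 1.69 to 2.05 in the controls and 1.99 to 2.34 in HADA libraries. The smallest peaks in the lists had 7 to 9 reads at their summit. A gene without a listed peak may therefore still have had signal below that limit. In a bulk sample, fewer cells of a type and less open chromatin per cell cannot be told apart. Markers of the labelled white blood cells were present to differing degrees: all 10 housekeeping genes had a promoter peak in every library, at least 8 of 10 T cell genes did in every library, and 10 of 10 B cell genes did in 5 libraries against 4 of 10 in control 3. At least 6 of 10 neutrophil genes and 8 of 10 monocyte genes had one in every library, while the NK cell list was lower, at 4, 4 and 2 of 8 genes in the controls and 4, 5 and 6 in HADA. Summed over the list, summit pileup relative to background was 28.5 to 272 at B cell genes in the controls and 661 to 743 in HADA, and 196 to 483 in the controls and 90.2 to 159 in HADA libraries at neutrophil genes. Neither sum overlapped between the groups, and control 3 had the lowest B cell and the highest neutrophil values. Genes without a listed peak counted as 0 in these sums.

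Peaks at the erythroid genes were mostly small and differed from library to library. Control libraries 1, 2 and 3 had 6, 6 and 2 peaks at the 9 genes, and HADA libraries 1, 2 and 3 had 6, 5 and 7. Per 10000 peaks this was 1.45, 1.46 and 0.587 in the controls and 1.35, 1.14 and 1.53 in HADA libraries, with means of 1.16 ± 0.50 and 1.34 ± 0.20 (SD, n = 3 each). The groups overlapped, control 3 alone was low, and without it the mean of the control libraries (1.45) was above that of HADA (1.34). The groups were apart, with HADA higher, when the same number of strongest peaks was taken from each list (0.783 against 1.37) and at a −log10 q limit of 5 (0.819 against 1.49) or of 10 (0.815 against 1.32). At least 1 peak was found at 5, 4 and 2 of the genes in the controls and at 5, 4 and 5 in HADA, or 3.67 ± 1.53 against 4.67 ± 0.58 (SD, n = 3 each), which also overlapped. At a −log10 q limit of 5 these gene counts were apart too, at 2.67 against 4.33. Counting only peaks whose nearest protein-coding start is that of the gene, which leaves out the peak at Klf1, 2.67 genes had a peak in the controls and 3.67 in HADA (0.904 and 1.11 peaks per 10000). Counting only peaks within 3 kb of a start, the gene counts were again 5, 4 and 2 in the controls and 5, 4 and 5 in HADA. This was 22.2 to 55.6% of the 9 genes in the controls and 44.4 to 55.6% in HADA. Of all 21757 protein-coding genes, 55.5 to 59.3% in the controls and 61.2 to 61.6% in HADA libraries had a peak within 3 kb of a start, so the members were near or below that share, where 1 of 9 genes is 11.1%, and control 3 was lowest.

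Of the 11 regions, 2 had a peak in all 6 libraries (18.2%), against 23970 of all 62876 regions (38.1%). Another 5 were found in a single library (45.5%), against 11905 of all regions (18.9%). Over all regions, 7.01% had a peak in every HADA library and no control library and 1.88% had the reverse, and among the 11 regions there were 0 of either kind. The 9 regions that were not in all libraries were small: their 20 peaks had 8 to 33 reads at the summit and stood at the 0.4th to 47.8th percentile of height in their own library, with a median at the 20.6th percentile. The plot of summit pileup by library shows the regions at Klf1 and Tal1 standing above the rest.

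**Figure D1:**
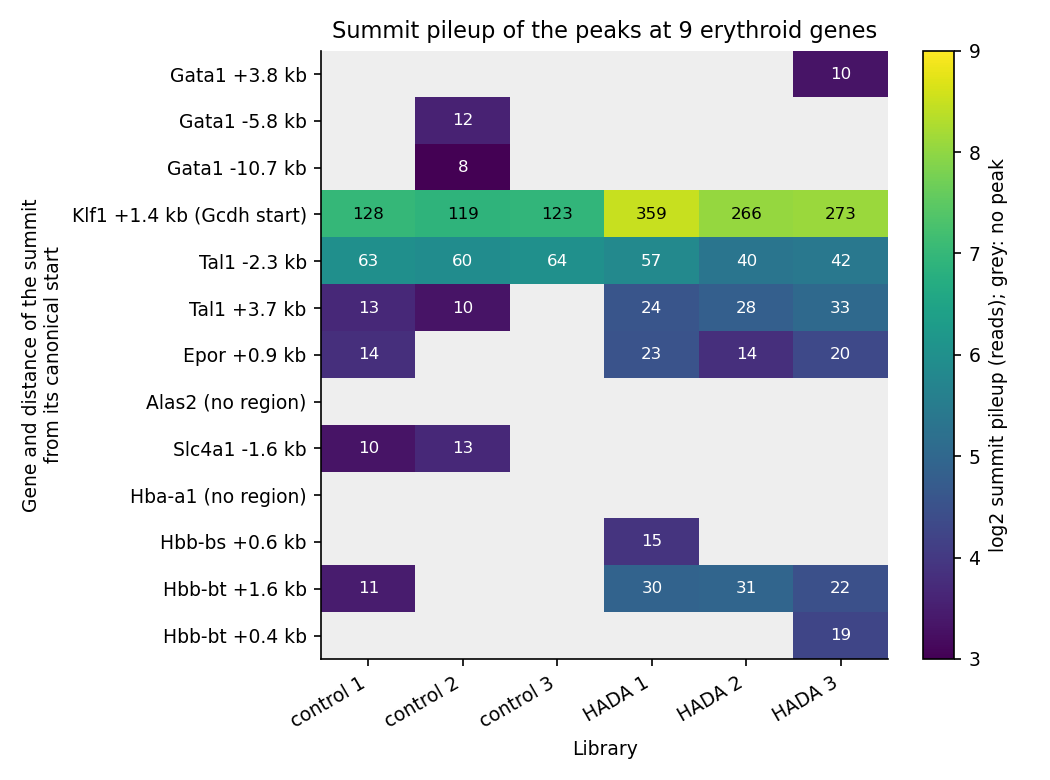
Summit pileup (reads, printed in each cell and coloured on a log2 scale) of the 11 regions at the erythroid genes in the 6 libraries, with rows named by gene and by the distance of the summit from its canonical start, and grey where no peak was listed. Klf1 has 119 to 359 reads in all libraries and Tal1 40 to 64 at its 5′ region, while Alas2 and Hba-a1 have no peak and the other regions have at most 33 reads.

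Few of the canonical promoters had a listed peak. Within 1 kb of the start of the canonical transcript, Epor had a peak in control 1 and HADA 1, Hbb-bs had a peak in HADA 1 and Hbb-bt had a peak in HADA 3. The other 6 genes had none in any library. That was 0 to 1 of the 9 genes per control library and 0 to 2 per HADA library. Within the same distance of their canonical start, 48.9 to 52.1% of the 21757 protein-coding genes had a peak in the controls and 53.6 to 54.1% in HADA.

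The promoters themselves are shown because they carry the letters that erythroid factors read and yet had few listed peaks. Each runs from 250 bases before to 50 bases after the canonical start in GRCm39, on the strand of the gene, with GATAA (the core read by GATA factors) and CACCC (the core read by KLF factors) in capitals on either strand, so that TTATC and GGGTG are their reverse complements. Klf1 is at chr8:85628307-85628606 on the plus strand, Alas2 at chrX:149330121-149330420 on the plus strand, Slc4a1 at chr11:102256057-102256356 on the minus strand, Hba-a1 at chr11:32233261-32233560 on the plus strand and Hbb-bs at chr7:103477120-103477419 on the minus strand.
Klf1 promoter: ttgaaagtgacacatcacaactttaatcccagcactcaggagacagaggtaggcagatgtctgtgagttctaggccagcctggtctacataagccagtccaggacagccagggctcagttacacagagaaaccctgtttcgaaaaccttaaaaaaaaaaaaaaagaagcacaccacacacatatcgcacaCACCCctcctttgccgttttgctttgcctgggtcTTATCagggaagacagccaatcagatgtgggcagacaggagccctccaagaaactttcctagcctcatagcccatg
Alas2 promoter: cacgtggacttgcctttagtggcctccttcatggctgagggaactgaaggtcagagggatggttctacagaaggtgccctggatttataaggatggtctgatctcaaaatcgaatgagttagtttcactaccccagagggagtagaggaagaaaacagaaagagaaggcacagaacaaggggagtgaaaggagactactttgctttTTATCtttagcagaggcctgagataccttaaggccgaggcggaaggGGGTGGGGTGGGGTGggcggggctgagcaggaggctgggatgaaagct
Slc4a1 promoter: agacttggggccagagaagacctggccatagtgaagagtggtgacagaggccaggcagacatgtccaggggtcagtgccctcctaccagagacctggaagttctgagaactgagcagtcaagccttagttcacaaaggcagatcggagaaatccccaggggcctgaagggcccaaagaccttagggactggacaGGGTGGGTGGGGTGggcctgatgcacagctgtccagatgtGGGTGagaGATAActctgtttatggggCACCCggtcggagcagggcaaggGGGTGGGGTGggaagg
Hba-a1 promoter: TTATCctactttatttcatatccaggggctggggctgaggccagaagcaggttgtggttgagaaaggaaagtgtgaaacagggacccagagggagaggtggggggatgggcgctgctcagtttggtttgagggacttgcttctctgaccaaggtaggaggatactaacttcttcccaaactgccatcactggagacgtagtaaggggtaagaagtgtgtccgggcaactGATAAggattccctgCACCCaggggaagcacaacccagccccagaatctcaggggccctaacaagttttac
Hbb-bs promoter: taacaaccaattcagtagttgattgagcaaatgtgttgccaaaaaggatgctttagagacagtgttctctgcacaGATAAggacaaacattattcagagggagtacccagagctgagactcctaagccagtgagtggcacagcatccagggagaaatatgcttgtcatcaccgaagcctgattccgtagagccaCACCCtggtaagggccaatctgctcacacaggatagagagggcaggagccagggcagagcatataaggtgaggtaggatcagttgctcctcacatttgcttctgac

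GATAA was found in 7 of the 9 promoters, all but those of Gata1 and Tal1, and in 24.5% of the 21757 protein-coding promoters. CACCC was found in 9 of 9 and in 58.7% of all promoters. The peaks that were listed at these genes mostly lay elsewhere: within 100 bp of the summit, GATAA occurred in 2 of the 11 regions against 16.7% of all regions, and CACCC in 4 of 11 against 43.2%. The E-box CANNTG, which TAL1 reads with its partners, occurred in 4 of 11 against 62.8%. These are matches of letters and were not tested as binding sites.

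Klf1 codes for the erythroid KLF factor that activates the adult β-globin gene. Its only region, chr8:85629319-85630254, had 128, 119 and 123 reads at the summit in the controls and 359, 266 and 273 in HADA. Every HADA library was above every control library, and the peak stood between the 82.1st and the 94.7th percentile of height. The summit, at position 85629974, was 1417 bp downstream of the Klf1 start and 165 bp inside Gcdh, a mitochondrial dehydrogenase gene that runs on the opposite strand. The nearest start was thus that of Gcdh, the summit lay in an exon of each gene, and the peak cannot be given to Klf1. The 201 bp around the summit held 67.2% G and C, above the 49.8% median of all regions, and 0 matches to GATAA, the KLF core or the E-box. The canonical promoter of Klf1 shown above had no peak in any library.

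Divided by the library background, the Klf1/Gcdh summit was 67 ± 8.9 in control and 136 ± 16.8 in HADA libraries (SD, n = 3 each; exact permutation p = 0.1, two-sided, with 0.1 the lowest value possible for 3 against 3). On log2 pileup centred on the median shared region, HADA was higher by 0.64 ± 0.16 (SE; 95% interval 0.26 to 1.02; limma, which shares the spread across regions, Benjamini-Hochberg adjusted p = 0.0194). Among all 23970 shared regions, 17.9% were called higher and 24.1% lower in HADA by this test. Without centring the Klf1/Gcdh difference was 1.02. The median difference over the shared regions was 0.34 (log2, higher in HADA) relative to background, while centring subtracts the median of each library. On centred pileup the call was lost with any HADA library left out, at limma adjusted p = 0.0799, 0.0714 and 0.0585 without HADA 1, 2 and 3. The summed height at B cell genes was higher in the same libraries, and its part in this difference was not tested.

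Tal1 codes for a basic helix-loop-helix factor of blood stem cells, erythroid cells and megakaryocytes. Its 5′ region, chr4:114913833-114915006, had 63, 60 and 64 reads at the summit in the controls and 57, 40 and 42 in HADA. All control libraries lay above all HADA libraries, by little in HADA 1. The summit lay 104 bp upstream of the nearest annotated Tal1 start and 2259 bp upstream of the canonical one, in an exon of the noncoding RNA Gm69078. The 201 bp around it, chr4:114914346-114914546 in GRCm39 on the plus strand, are shown because this was the only one of the 11 regions that was in all libraries and whose nearest protein-coding start belonged to one of the 9 genes. They hold 3 matches to CACCC, in capitals, and no GATAA.
Tal1 5′ region: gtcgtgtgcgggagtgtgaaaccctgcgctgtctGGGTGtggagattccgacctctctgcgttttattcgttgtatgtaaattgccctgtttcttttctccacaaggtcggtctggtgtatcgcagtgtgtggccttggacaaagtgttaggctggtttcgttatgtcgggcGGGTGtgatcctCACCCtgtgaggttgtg

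Relative to background, the Tal1 5′ summit was 33.8 ± 4.2 in control and 21.0 ± 3.0 in HADA libraries (SD, n = 3 each; exact permutation p = 0.1, two-sided). The centred log2 difference was −1.07 ± 0.17 (SE; 95% interval −1.47 to −0.67; limma adjusted p = 0.00905), that is 2.1-fold lower in HADA than the median shared region would give. Without centring it was −0.69 (limma adjusted p = 0.0444). By the rank of the fold enrichment in place of pileup it was −0.27 normal scores and was not called (limma adjusted p = 0.211). The summed height at neutrophil genes was lower in the same libraries, and its part in this difference was not tested. The plot of both shared regions shows that neither has overlapping groups.

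**Figure D2:**
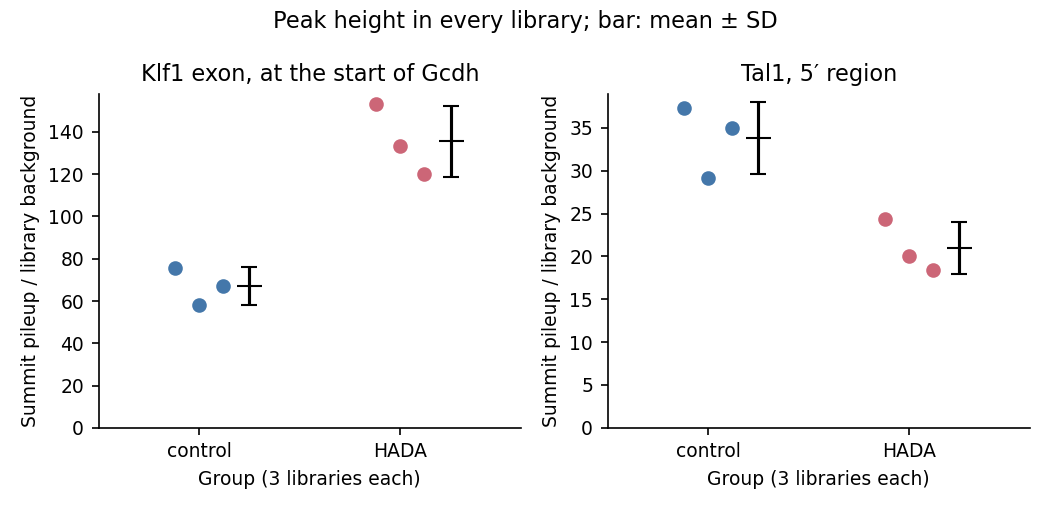
Summit pileup divided by the library background (no unit) at the region shared by Klf1 and Gcdh (left) and at the Tal1 5′ region (right), each point a library and the bar the mean ± SD of 3. The HADA libraries lie above the control libraries on the left (136 ± 16.8 against 67 ± 8.9) and below them on the right (21.0 ± 3.0 against 33.8 ± 4.2).

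A further Tal1 region, chr4:114919884-114921167, in an exon 431 bp past an inner start, had more reads in HADA libraries. It had 13 and 10 reads in control 1 and 2, no peak in control 3, and 24, 28 and 33 reads in HADA 1, 2 and 3. Each HADA value was above each control value, but the region was not in all lists and had no test. Its sequence was the most G and C rich of the 11, at 76.1%.

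Gata1, the X-linked master factor of erythroid cells, megakaryocytes, eosinophils and mast cells, had 3 regions and each was in a single library. In control 2, a region of 12 reads lay in an intron at chrX:7839519-7840988 and one of 8 reads, the smallest pileup in that list, lay at chrX:7844541-7844971, upstream of the most distal start. In HADA 3, a region of 10 reads lay in an exon at chrX:7830344-7830656. No 2 libraries shared a Gata1 peak, and the canonical start had none.

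Epor codes for the erythropoietin receptor, which is the signalling receptor of erythroid progenitors. Its region, chr9:21872935-21874149, is in an intron with the summit 64 bp before an inner start. It had 14 reads in control 1, no peak in control 2 and 3, and 23, 14 and 20 reads in HADA 1, 2 and 3. Control 1 and HADA 2 were equal in reads, and relative to background control 1 (8.29) lay within the HADA range (7.03 to 9.83).

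Slc4a1 codes for band 3, the anion exchanger of the red cell membrane. Its region, chr11:102257131-102257987, lay upstream of the gene, 674 bp before the nearest start. It had 10 and 13 reads in control 1 and 2 and no peak in control 3 or in any HADA library. Alas2, the erythroid form of the first enzyme of heme synthesis, had no peak in any library, and 99.8% of the 50-base sequences in that gene occur once in the genome, so reads from it can be placed.

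At the adult globin genes, the placement of reads limits what a peak list can show. Counting exact copies of every 50-base sequence on the main chromosomes, 12% of those in Hba-a1 occur once, since most are shared with Hba-a2, where the share is 4.5%. Hba-a1 had no peak in any library. In Hbb-bs 83.4% and in Hbb-bt 64.8% of the 50-base sequences occur once. Whether reads with several placements were kept is not stated.

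The Hbb-bs region, chr7:103476487-103476787, was a peak of 15 reads in HADA 1 alone, in an annotated exon, and 0% of its 50-base sequences occur once. The exon region of Hbb-bt, chr7:103462478-103462937, was a peak of 19 reads in HADA 3 alone, and 4.9% of its sequences occur once. The 50 bases at each summit are shown because each occurs letter for letter in both genes, so the reads under these peaks may belong to either. The first is at chr7:103476565-103476614 in Hbb-bs and at chr7:103462556-103462605 in Hbb-bt, and the second at chr7:103462805-103462854 in Hbb-bt and at chr7:103476814-103476863 in Hbb-bs, all on the plus strand of GRCm39.
Hbb-bs summit: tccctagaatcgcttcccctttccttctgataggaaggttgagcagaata
Hbb-bt exon summit: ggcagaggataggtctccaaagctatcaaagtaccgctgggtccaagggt

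The other Hbb-bt region, chr7:103461334-103461923, was fully unique in sequence. It lay just past the 3′ end of the gene, 1577 bp from the canonical start. It had 11 reads in control 1, no peak in control 2 and 3, and 30, 31 and 22 reads in HADA 1, 2 and 3. Every HADA value was above the control value, at the 33.7th to 45.2nd percentile of height in HADA and the 12.3rd in control 1. The region was not tested, since control 2 and 3 give no height. The 201 bp around its summit, chr7:103461526-103461726 on the plus strand of GRCm39, are shown because this was the only globin region with a peak in every HADA library and a sequence found once. They hold 34.8% G and C, the lowest of the 11 regions, and neither GATAA nor the KLF core, so nothing is in capitals.
Hbb-bt 3′ region: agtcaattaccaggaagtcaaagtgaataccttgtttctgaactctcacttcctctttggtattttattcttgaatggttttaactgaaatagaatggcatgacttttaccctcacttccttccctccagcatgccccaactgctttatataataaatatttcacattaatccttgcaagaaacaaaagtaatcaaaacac

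Since globin enhancers lie outside the genes, all peaks were counted in a window of each cluster with 50 kb on each side. Control libraries 1, 2 and 3 had 7, 5 and 5 peaks in both windows together, and HADA libraries 1, 2 and 3 had 8, 8 and 9. The means were 5.67 ± 1.15 and 8.33 ± 0.58 (SD, n = 3 each) and the groups did not overlap. Counting only summits whose 50 bases occur once, the means were 3.67 and 4.33 and the groups overlapped, a setting chosen after values had been seen. The difference of 2.67 peaks thus fell to 0.667 without repeated sequence. The groups also overlapped with the same number of strongest peaks per library (5.0 against 6.67), at a −log10 q limit of 10 (4.33 against 6.0) and with 20 kb on each side (2.67 against 5.0). HADA lists were longer throughout.

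None of the peaks lay where the β-globin locus control region is. The 50 kb upstream of Hbb-y held 0 peaks in all 6 libraries, and so did the 75.3 kb from the Hbb-bs start to that edge of the window, which includes Hbb-y, Hbb-bh1 and Hbb-bh2. On the other side, chr7:103468471-103469077, between Hbb-bs and Hbb-bt, had 17, 21 and 14 reads in the HADA libraries and no peak in control libraries, and the 50 bases at its summit occur 5630 times in the genome. Downstream of Hbb-bt, chr7:103455028-103455736 had 24, 37 and 17 reads in the controls and 17, 23 and 36 in HADA, without a called difference (−0.66 ± 0.36, SE; limma adjusted p = 0.171) and with a summit sequence of 1600 copies. That difference was −0.38 without control 2, −0.33 without HADA 1 and −0.97 without HADA 3. At the far edge, chr7:103411480-103412860 had 84, 75 and 35 reads in the controls and 221, 206 and 199 in HADA (+1.16 ± 0.28, SE; limma adjusted p = 0.0164), in a repeat of which 13.1% of the 50-base sequences occur once. Without HADA 2 the difference was 1.12 and the call was lost (limma adjusted p = 0.0618), and by fold rank it was 0.67 normal scores (limma adjusted p = 0.0578).

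**Figure D3:**
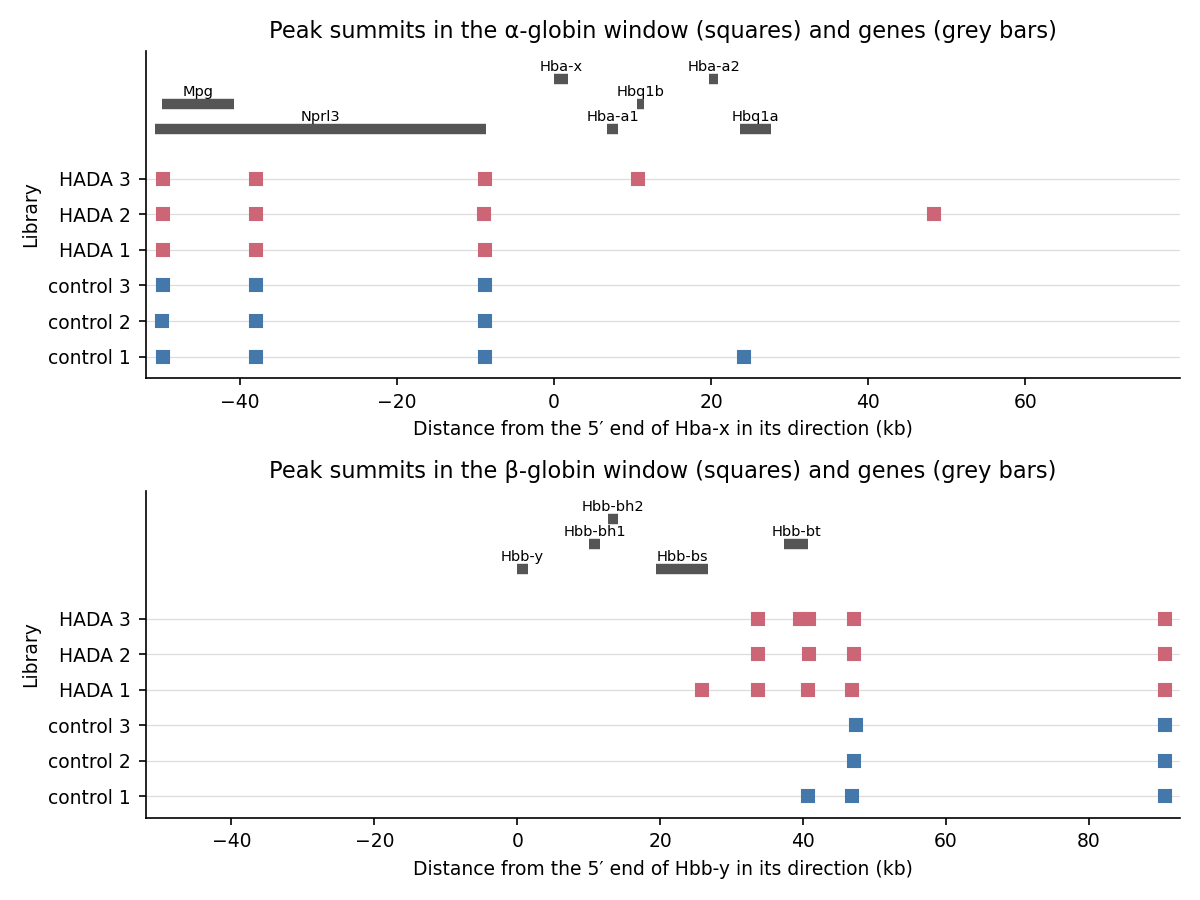
Peak summits (squares, blue for control and red for HADA) of each library in the α-globin window (top) and the β-globin window (bottom) by distance in kb from the 5′ end of Hba-x or Hbb-y, with protein-coding genes as grey bars. Each library has the same 3 summits at Mpg and Nprl3 upstream of the α-globin genes, and the 50 kb upstream of Hbb-y has none.

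In the α-globin window every library had the same 3 regions, all at neighbouring genes that are used in many cell types. The region at the start of Mpg, a DNA repair glycosylase gene, had 41, 37 and 37 reads in the controls and 94, 84 and 92 in HADA (centred log2 difference +0.61 ± 0.16, SE; limma adjusted p = 0.0201). Without HADA 1, 2 or 3 the difference was 0.65, 0.60 and 0.57 and the call was lost (limma adjusted p = 0.0587, 0.0832 and 0.0845). By fold rank it was 0.13 normal scores (limma adjusted p = 0.682). The start of Nprl3, a regulator of TORC1 signalling, had 74, 63 and 38 reads in the controls and 124, 121 and 124 in HADA (+0.51 ± 0.22, SE; limma adjusted p = 0.097). That difference was 0.29 without control 3, and without centring it was 0.88 and called (limma adjusted p = 0.00975). Between the Nprl3 start and a region further inside the gene, 28.4 kb of the Nprl3 body held 0 peaks in all 6 libraries, and so did the 16.5 kb from the Nprl3 start region to the end of Hba-a1, including Hba-x.

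The largest centred difference among the shared regions of both windows was inside Nprl3, 37.9 kb upstream of Hba-x, at chr11:32187869-32188843. Its summit lay in an annotated exon of Nprl3, at −434 bp from an annotated Nprl3 start (negative is upstream). Whether it is one of the Nprl3 enhancers named above was not tested. The region had 58, 30 and 12 reads in the controls and 157, 148 and 120 in HADA. Every HADA library was above every control library, and control 3 was lowest. Relative to background this was 18.5 ± 14.3 against 64.7 ± 11 (SD, n = 3 each; exact permutation p = 0.1, two-sided), with a centred log2 difference of 1.73 ± 0.45 (SE; 95% interval 0.69 to 2.77; limma adjusted p = 0.0207). Without HADA 1 and without HADA 2 the difference was 1.72 and 1.64 and the call was lost (limma adjusted p = 0.0532 and 0.0701), as it was by fold rank, at 1.77 normal scores (limma adjusted p = 0.0508).

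The order of the libraries at this Nprl3 region was that of the B cell list in control, highest in control 1 and lowest in control 3, and the part of B cells in it was not tested. The 201 bp around the summit, chr11:32188370-32188570 on the plus strand of GRCm39, are shown because they hold 2 matches to GATAA, facing each other on opposite strands, in capitals. The other 5 regions of the α-globin window held none within 100 bp of the summit.
Nprl3 inner region: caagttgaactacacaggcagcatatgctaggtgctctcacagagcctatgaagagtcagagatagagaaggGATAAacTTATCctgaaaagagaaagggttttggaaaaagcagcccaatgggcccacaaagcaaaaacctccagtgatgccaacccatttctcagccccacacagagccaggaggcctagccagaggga

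The remaining α-globin peaks were each in a single library. Hbq1b, a theta globin gene, had a peak of 16 reads in HADA 3, its copy Hbq1a had a peak of 10 reads in control 1 at a summit sequence found once, and a region 48.3 kb downstream of the Hba-x start had 19 reads in HADA 2. The 50 bases at the Hbq1b summit occur 2 times in the genome, so those reads may belong elsewhere. Of the 8 other globin genes searched (Hba-a2, Hba-x, Hbq1a, Hbq1b, Hbb-bh1, Hbb-bh2, Hbb-bh0 and Hbb-y), 6 had no promoter peak in any library. The 2 with a peak were those theta globin genes.

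The other genes of the red cell program fell into groups. Of 15 genes of the red cell surface and cytoskeleton, 7, 6 and 6 had a promoter peak in the controls and 8, 8 and 8 in HADA. The 5 genes in all 6 libraries, Slc2a1, Epb41, Gypc, Dmtn and Sptb, are also used outside red cells, and 7 genes had none, among them Ank1, Epb42, Rhag and Kel. Rhd was at 10.7 and 8.2 times background in control 1 and 3, without a peak in control 2, and at 23.5 to 29.1 in HADA libraries. Summed over the list, height relative to background was 178 to 297 in the controls and 369 to 402 in HADA, with no overlap. The sums were also higher in HADA without overlap for the heme and iron, shared factor, megakaryocyte, B cell, T cell and NK cell lists, and they overlapped for the housekeeping, monocyte and eosinophil lists. Over the 9 main genes the sum was 97.3 to 134 in the controls and 161 to 207 in HADA, and without Klf1, whose peak is shared with Gcdh, it was 35 to 58 and 41.4 to 53.4, which overlapped.

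Of 15 genes of heme synthesis and iron supply, 13 had a promoter peak in every library of both groups. Among the tallest were Slc25a38 and Ppox, at mean heights of 160 and 153 times background over the 6 libraries. The 2 without a peak were Ahsp, the chaperone of free α-globin, and Trim58, a ubiquitin ligase of late erythroblasts, both expressed mainly in erythroid cells. The enzymes of heme synthesis with a peak are used by all cells with mitochondria.

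Of 14 transcription factor genes that erythroid cells share with other lineages, 12, 12 and 11 had a promoter peak in control and 12 in each HADA library. The tallest were Zfpm1, Zbtb7a and Klf3, at mean heights of 249, 226 and 198 times background. Gata2, the GATA factor of progenitors and mast cells, had no peak in any library, and Kit, the receptor of stem cells and progenitors, had a peak in control 2 alone, at 6.3 times background. Sox6, a factor of erythroid and cartilage cells, was at 7.1 times background in control 1 alone among the controls and at 15.1 to 23.9 in HADA libraries.

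Megakaryocytes, eosinophils and basophils also use GATA factors. Of 15 megakaryocyte and platelet genes, 5, 4 and 4 had a promoter peak in the controls and 5, 5 and 6 in HADA. Of the 4 genes with a peak in all 6 libraries, Itgb3, Gp5 and Itga2b were the tallest, and 9 genes had none, among them Gp1ba, Gp6, Gp9 and Ppbp. Selp, named after its values were seen, had a peak in control 1 at 40.3 times background and in HADA at 37.4 to 65.8. Pf4 had a peak in HADA 3 alone. Of 15 eosinophil and basophil genes, 5, 4 and 4 had one in control and 6 in each HADA library. The 3 genes with a peak in all 6 libraries were Hdc, Ear2 and Siglecf, and 8 had none, including Epx, Fcer1a, Ms4a2, Mcpt8 and Cpa3. Hdc was lower in HADA without overlap, at 97.4 to 255.8 times background in the controls and 48.4 to 96.1 in HADA. So was Ear2, at 33.1 to 44.3 in the controls and 10.5 to 18.4 in HADA, while the groups overlapped at Siglecf. Prg2 went the other way, at 7.1 in control 1 alone among the controls and at 21.6 to 24.6 in HADA. Il5ra, also named after its values were seen, was at 15.4 and 15.1 times background in control 1 and 2, without a peak in control 3, and at 32.5 to 37.7 in HADA. Cyp11a1, a steroid synthesis gene of that list, had a peak in all HADA libraries, at 16.6 to 17.1 times background, and in no control library. Among the white cell lists, Klrb1c of the NK cell list showed the same pattern, at 8.1 to 10.5 times background. These lists share genes with other cells, and 7.01% of all regions had that pattern.

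**Figure D4:**
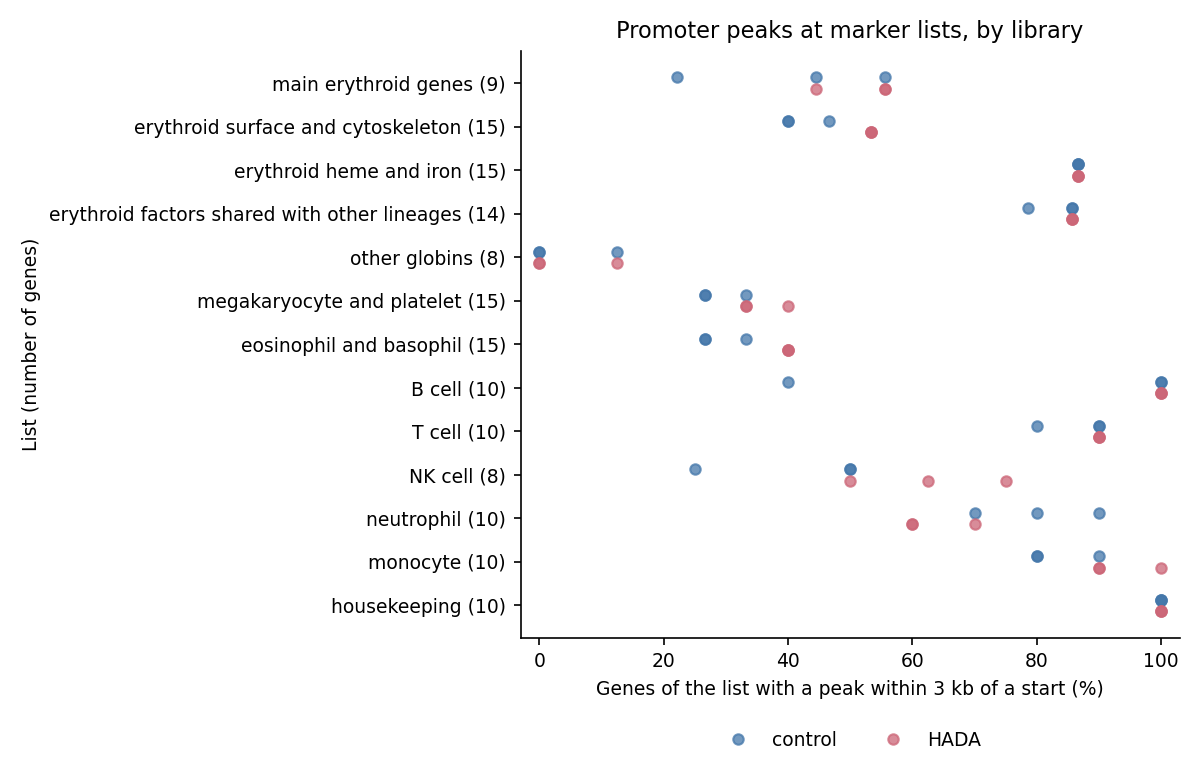
Percentage of the genes of each list with a peak within 3 kb of a start, each point a library (blue control, red HADA) and the number of genes in parentheses. The 9 main erythroid genes lie at 22.2 to 55.6%, against 55.5 to 61.6% of all protein-coding genes (not drawn), the other globin genes have at most 1 of 8, and control 3 stands apart at the B cell list with 4 of 10 genes.

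The promoter regions whose heights across the 6 libraries were most like those of the Klf1/Gcdh region were sought among 11876 promoter regions present in all libraries, by Euclidean distance in centred log2 pileup. They were at Lysmd3, Rpe, Sub1, H4c8 and Tmem131l, at distances of 0.20, 0.23, 0.24, 0.26 and 0.27. The Lysmd3 region was at 1.26, 1.08 and 1.44 in the controls and 2.02, 1.80 and 1.85 in HADA libraries, against 1.14, 1.11 and 1.33 and 1.96, 1.79 and 1.75 at Klf1/Gcdh. None of the 5 was among the erythroid genes searched here.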

How the data were processed

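White cells of mouse blood were profiled by ATAC-seq after red cell lysis, in 3 control and 3 HADA libraries, grouped by their labels. The authors used Trimmomatic for trimming, Bowtie2 for alignment to GRCm39, Picard for removal of duplicates and MACS2 for peaks, with each library called by itself. The deposited lists give a fold enrichment of each summit over local background, a −log10 p-value and a −log10 q-value, and the MACS2 options are not given in the sources used here. The study calls the cells leukocytes in its methods and mononuclear cells in its results.

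From the deposited fold and −log10 p-value of each peak, summit pileup (a whole number) and local background were solved through the MACS2 formulas, for 100% of peaks in every library. Total reads were not analysed here. Genes came from GENCODE for GRCm39, and coordinates are 1-based. Regions were merged peaks sharing 1 bp, with the tallest peak as the height. Regions with a peak in all 6 libraries were compared by limma 3.58.1 (R 4.3.3) on median-centred log2 pileup with a Benjamini-Hochberg threshold of 0.05, and single regions by an exact permutation test that cannot give p below 0.1. No pseudocount was used, and absent peaks were not filled in for these tests. In the summed heights of the gene lists, a gene without a listed peak counted as 0, though it may have had signal below the limit of the lists. Scripts were tested on simulated data.

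All 9 genes and all their regions are named, with the other globin genes, the 3 tallest of the genes in most libraries of each erythroid or related list, genes with peaks in all libraries of 1 group only, and the 5 promoter regions most like the Klf1/Gcdh region. Other genes named beside counts were chosen after their values were seen, and some genes of the lists are not reported here by name. The genes and lists were chosen with earlier results of these data known. Copies of sequences were counted as exact 50-base matches on both strands.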

Additional observations from a re-analysis of the deposited data

How the results depend on the processing

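Absence from a list means no called peak, since the lists hold peaks of at least 7 to 9 reads, and 5 of the 11 regions at the erythroid genes rest on 1 library. The difference in peaks per 10000 (0.175, HADA minus control) ranged from −0.113 to 0.321 with 1 library left out and turned to −0.113 without control 3. It was 0.587 with the same number of strongest peaks per library and 0.667 and 0.504 at a −log10 q limit of 5 and of 10, 0.0272 with summit sequences found once (1.16 against 1.19), and 0.248 with starts within 10 kb (2.28 against 2.53). Genes with a peak differed by 1.0, and by 0.167 to 1.67 with 1 library left out. The difference in peaks of the globin windows (2.67) became 1.67 with the strongest peaks, 3.67 and 1.67 at a −log10 q limit of 5 and of 10, 2.33 with 20 kb on each side, and 0.667 with summit sequences found once, and ranged from 2.33 to 3.33 with 1 library left out.

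Regions at these genes in every library of 1 group only numbered 0. They were 2 with the strongest peaks and 2 at a −log10 q limit of 5 (the inner Tal1 and the Hbb-bt 3′ region), and 1 at 10 (inner Tal1), all in HADA. With 1 library left out the count was 0 to 2: without control 1 the Hbb-bt 3′ and Epor regions were in HADA only, and without control 3 the Slc4a1 region was in control only. Scaling pileups to the lowest background, requiring sequence found once and summing heights without Klf1 were added after values had been seen.

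Called shared regions at these genes numbered 2, and 0 by the rank of the fold, where Klf1/Gcdh was 0.56 normal scores (limma adjusted p = 0.0524) and Tal1 −0.27 (limma adjusted p = 0.211). With 1 library left out the number was 1 to 2, Klf1/Gcdh was 0.58 to 0.71 and lost its call without any 1 of the HADA libraries, and Tal1 was −1.16 to −0.98 and kept it. Over all shared regions the calls were 4291 higher and 5769 lower, against 1573 and 1146 by fold rank, 1892 and 3461 without HADA 1, 801 and 2056 without HADA 2, and 1583 and 3786 without HADA 3. Without centring they were 7432 and 4396, so the share of calls that were higher went from 42.7% to 62.8%.

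Libraries with the same replicate number did not deviate together (correlations of −0.0797, 0.0751 and −0.376), so the numbers name libraries only. With the replicate block, 1 region was called, Tal1 at −1.07 (limma adjusted p = 0.0116), Klf1/Gcdh stayed at 0.64 (limma adjusted p = 0.0564), and all calls were 2991 higher and 5660 lower.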
